A study of Xenopus laevis with 16 samples.

Results

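The solute carrier (SLC) genes were examined in explanted ectoderm of Xenopus laevis embryos. They were taken as the probe sets to which the platform annotation gives exactly 1 gene symbol beginning with slc, with the brightest probe set by mean signal over all arrays standing for each symbol. Of 15491 probe sets tested, 131 carried such a symbol, for 120 symbols in all. The 3 symbols slc2a1.L, slc43a2.L and slc7a5.L were left out by the rule, which left 117 members. Counting the .L and .S copies (homeologs) of this allotetraploid frog as 1, the members cover 101 genes of 40 families. For 10 members more than 1 probe set was present.

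Total RNA from pooled animal caps, the upper part of the blastula that forms epidermis when cultured alone, was measured on 16 Affymetrix Xenopus arrays of 1 colour, in 4 groups of 4. The foxD5 caps came from embryos injected at the 2-cell stage with foxD5 mRNA (100 pg per cell) and were cultured without Noggin. Their controls were uninjected sibling caps in the same culture. The foxD5 + Noggin caps received the same mRNA and were cultured in Noggin at 200 ng/ml. Noggin is secreted and keeps BMP ligands from their receptors. Their controls were uninjected sibling caps in Noggin. The labels give harvest stages of 11.5 to 13.0 for foxD5 caps and none for uninjected caps without Noggin. They give 11.5 to 12.5 for foxD5 + Noggin caps and 11.5 to 12.5 for uninjected caps in Noggin. Within pair 2 in Noggin the foxD5 sample was at 11.5 to 12.5, against 11.5 to 12.0. It was at 12.0 to 12.5, against 11.5 to 12.0, in pair 3 and at 12.5, against 12.0 to 12.5, in pair 4. In pair 1 the stages were the same. The part of stage in the foxD5 effects was not tested. FoxD5, a forkhead protein, regulates transcription in the early neural ectoderm. A control mRNA was given to no group, so the effects of foxD5 and of being injected cannot be told apart. Each sample pooled 45 to 171 caps, with 45 in uninjected sample 1 and 171 in its foxD5 sibling. A source label names a cochlea, against the sample descriptions, which were followed. Whether the numbered samples are separate clutches is not stated in the labels, so the p-values reflect only how much these samples vary, which may in part be technical.

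SLC proteins move amino acids, sugars, carboxylates, ions, metals, vitamins and nucleotides across the plasma membrane and the membranes of mitochondria and other organelles. Most are secondary transporters, which use ion or substrate gradients and not ATP, and a family number groups proteins by sequence. In the early frog embryo they act beside the yolk stored in every cell, and the epidermis later adds ion-transporting cells. The roles given below are known mostly from human and mouse proteins. The member slc9a3r1 encodes a scaffold protein that binds a sodium-proton exchanger, not a transporter.

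The deposited values are a linear signal with the mean after trimming 2% at each end equal to 150.02 on every array. Mean signals of the members lay between 2.33 and 2058 with a median of 60.3. A mean under 16 was found for 24 of 117 members (20.5%), against 28.5% of all probe sets. Changes are differences of quantile-normalised log2(signal + 16), which understates the change of dim genes, and 4 arrays per group limit the precision. Keratins mark epidermis. The 24 genes whose symbol begins with krt, which include krtcap3.L, not itself a keratin, had a summed signal of 7214 to 9615 in foxD5 caps, 7197 to 19690 in uninjected caps, 6902 to 11820 in foxD5 + Noggin caps and 6458 to 22180 in uninjected caps in Noggin, and 12 of the 24 averaged under 16. Of 14 endoderm genes 13 averaged under 16, and no gene of the inner ear list matched an annotated symbol. The summed signal of 19 neural plate genes was 7180 to 7914 in foxD5 caps, 5291 to 8445 in uninjected caps, 5836 to 8780 in foxD5 + Noggin caps and 4200 to 10610 in uninjected caps in Noggin, and in the mean of both cultures 1 of the 19, irx1.L, fell and 0 rose. The summed signal of 15 mesoderm genes was 653.2 to 1099 in foxD5 caps, 261.4 to 788.9 in uninjected caps, 750.3 to 1669 in foxD5 + Noggin caps and 380.9 to 849.5 in uninjected caps in Noggin, and in the mean of both cultures vegt.L and tbxt.S rose and foxf1.L fell. The part of these tissue markers in the results was not tested except where values without pairs of arrays are given. In pooled caps, fewer cells of a type and less RNA per cell cannot be told apart. The signal of foxd4l1.1.S, a current symbol for foxD5, was 38.1 to 133.8 in foxD5 caps and 20.9 to 70.6 in uninjected caps, and 16.1 to 168.6 in foxD5 + Noggin caps and 11.3 to 255.3 in uninjected caps in Noggin. For foxd4l1.2.L the median was 6.72 in foxD5 caps and 9.04 in uninjected caps, and 1.53 and 10.12 in Noggin. Its highest signal on any array was 16.46. The ranges of both genes overlap between foxD5 and uninjected caps. Whether the probes lie within the injected mRNA is not given in the sources used here.

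The effect of foxD5 was asked within 4 sibling pairs without Noggin, within 4 others in Noggin, and as the mean of both. Without Noggin limma called 0 members at an adjusted p under 0.05 and in Noggin also 0. The shares of all probe sets called were 0.239% and 0.316%. Those shares depended on single pairs and on the settings. They were 0.0452% without Noggin when pair 4 was left out and 0.0323% in Noggin when pair 2 was left out, and at a pseudocount of 1 they were 0% and 0.00646%. Of the SLC symbols that the rule excludes, slc43a2.L (limma, adjusted p = 0.00965) and slc7a5.L (0.0368) were called without Noggin. In Noggin slc43a2.L (0.0181) and the dimmer probe set of slc2a1.L (0.0203) were called. At an unadjusted p under 0.05 there were 10 members without Noggin (8.55%, against 10.2% of all probe sets) and 11 in Noggin (9.4%, against 7.37%). In the mean of both cultures 1 member, slc43a2.S, was called and rose, while 1.37% of all probe sets were called, so the members' share is near that of the array as a whole. Each of the 3 symbols left out by the rule also had a probe set called. The limma adjusted p was 0.000485 for slc43a2.L, 0.0454 for slc7a5.L and 0.00194 for slc2a1.L (0.18 on its brighter probe set). The share thus holds for the members only, not for all SLC genes. At an unadjusted p under 0.05 there were 19 members, 10 higher and 9 lower in foxD5 caps (16.2%, against 11.6% of all probe sets).

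The 117 members as a group sat close to 0. Their median log2 change in the mean of both cultures was -0.048, against -0.0056 over all probe sets, with estimates from -0.57 to 0.83. An estimate below 0 was found for 72 of 117 members (61.5%), against 51.3% of all probe sets. The 95% confidence interval lay within a 2-fold change either way for 114 of 117 members (97.4%, against 98.2% of all probe sets) and within 1.5-fold for 89. Changes over 2-fold, on this scale, were thus outside the interval for nearly all members, while smaller changes were less well bounded. The offset of 16 shrinks the changes of dim genes. For the 24 members with a mean under 16, the interval therefore does not bound the fold change of the signal. The limit reaches other members of low signal. For slc43a2.S, with a mean of 19.9, the log2 change was 0.83 with the offset of 16 and 1.87 with a pseudocount of 1.

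**Figure D1:**
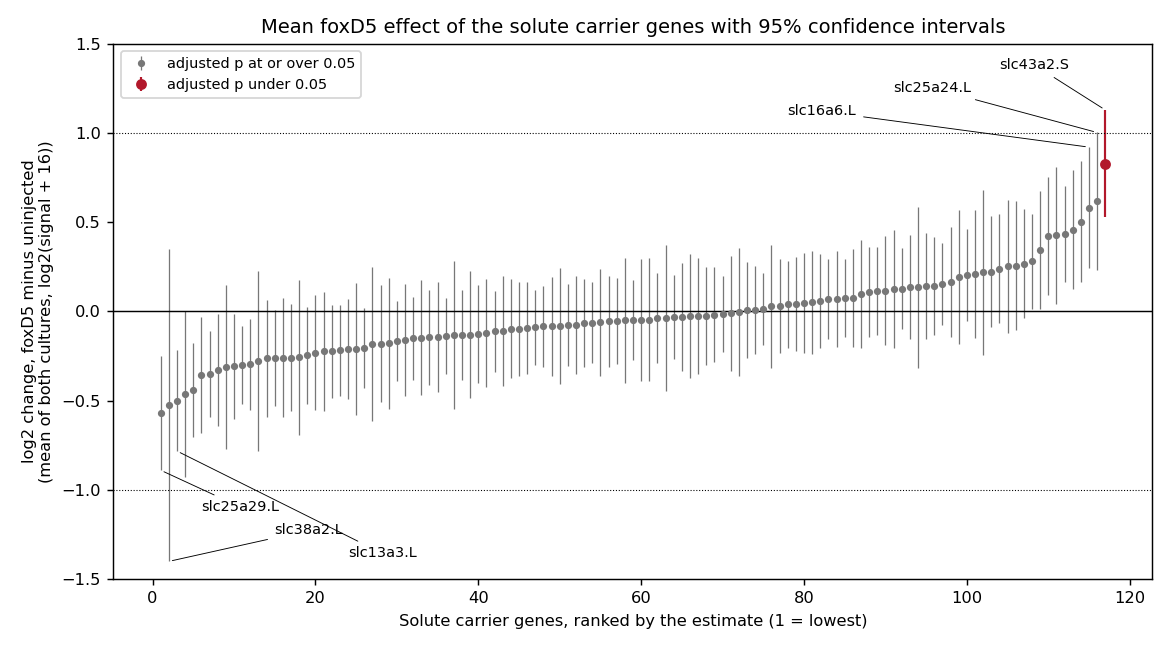
Mean foxD5 effect of each of the 117 SLC genes in rank order (horizontal axis), as the log2 change of foxD5 minus uninjected caps over both cultures (vertical axis); points are estimates, bars are 95% confidence intervals, dotted lines mark a 2-fold change. The estimates run from -0.57 to 0.83, and only slc43a2.S, in red, passed an adjusted p of 0.05.

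Amino acid and peptide carriers numbered 16, of which 1 rose and 0 fell, with a median log2 change of -0.012. The gene that rose, slc43a2.S, encodes a homeolog of LAT4, a sodium-independent carrier of branched-chain and other large neutral amino acids. Its signal was 18.8, 49.1, 22.6 and 11.4 in foxD5 samples 1 to 4, against 2.76, 6.90, 13.0 and 3.73 in their uninjected siblings. With Noggin it was 20.9, 25.2, 37.4 and 54.2 in foxD5 caps, against 3.28, 5.50, 15.5 and 27.999 in uninjected siblings. The foxD5 sample was the higher of each of the 8 pairs, although the groups overlap in both cultures, and 7 of 8 uninjected signals were under 16. Its log2 change was 0.83 ± 0.14 (SE; 95% interval 0.53 to 1.13; limma, adjusted p = 0.0116). It was 0.85 ± 0.20 without Noggin (adjusted p = 0.136) and 0.81 ± 0.20 in Noggin (adjusted p = 0.172), a difference of -0.03 ± 0.28.

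The call of slc43a2.S was lost without the sibling block (adjusted p = 0.0613), at a pseudocount of 1 (adjusted p = 0.127, log2 change 1.87), without pair 1 in Noggin (adjusted p = 0.0504) and without the 3 pairs of widest keratin difference (adjusted p = 0.115, log2 change 0.84). Its other homeolog, slc43a2.L, is not a member. It averaged 184 ± 19.5 in foxD5 caps and 59.4 ± 18.9 in uninjected caps (SD, n = 4 each). In Noggin it averaged 250 ± 132 in foxD5 caps and 86.5 ± 51.6 in uninjected caps, and those groups overlapped. Its mean log2 change over both cultures was 1.43 ± 0.13 (limma, adjusted p = 0.000485). Over all arrays slc43a2.L had a mean signal of 145, against 19.9 for slc43a2.S. Whether the probe set of slc43a2.S also takes up slc43a2.L RNA was not tested, so the 2 rises may not be independent.

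Further amino acid carriers did not pass. For slc38a5.S, a homeolog of the glutamine and small neutral amino acid carrier SNAT5, the signal was 42.3, 62.7, 24.8 and 12.6 in foxD5 caps, against 4.34, 42.3, 10.9 and 12.9 in uninjected caps. In Noggin it was 18.9, 27.4, 9.57 and 25.049 in foxD5 caps, against 14.047, 16.998, 8.05 and 9.79 in uninjected caps. It was higher in the foxD5 sample of 7 of 8 pairs and the groups overlapped, with a log2 change of 0.50 ± 0.16 (limma, adjusted p = 0.19). For slc1a5.S, of the neutral amino acid exchanger ASCT2, the log2 change was 0.27 ± 0.14 (limma, adjusted p = 0.493), with the normalised foxD5 value higher in 7 of 8 pairs. In pair 3 without Noggin the deposited foxD5 signal was slightly below its sibling's (486, against 496). The differences of 0.60 in pair 1 without Noggin and 0.74 in pair 2 in Noggin were the widest upwards, and their uninjected samples, at a signal of 276 and 305, are those of highest keratin signal and lie below the other 14 arrays (317 to 807). The part of that in the estimate was not tested.

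The sugar and monocarboxylate class held 0 calls among 23 members, with 9 estimates above 0, 14 below and a median of -0.048. Classes keep whole families together, so this one also holds the dicarboxylate carriers slc13a2.S and slc13a3.L, slc13a4l.S, of a sulfate carrier, and slc5a5.L, of the iodide carrier. For slc16a6.L, a homeolog of the monocarboxylate transporter MCT7, the signal was 136.9, 157, 114 and 166 in foxD5 caps, against 142, 85.4, 79.9 and 117 in uninjected caps. In the Noggin culture it was 150.2, 402, 99.4 and 237 in foxD5 caps, against 67.4, 263, 96.8 and 89.0 in uninjected caps. The foxD5 sample was higher in 7 of 8 pairs, pair 1 without Noggin being the exception, and the log2 change was 0.58 ± 0.16 (limma, adjusted p = 0.121). Without that pair it was 0.68 (adjusted p = 0.0452), and 2.54% of all probe sets were called.

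The sodium-dependent dicarboxylate carrier gene slc13a3.L had a signal of 7.54, 5.69, 19.4 and 8.21 in foxD5 caps, against 43.047, 27.6, 15.8 and 16.1 in uninjected caps. In Noggin it was 12.5, 7.11, 0.962 and 1.22 in foxD5 caps, against 20.4, 11.6, 8.25 and 10.1 in uninjected caps. In 7 of 8 pairs the foxD5 sample was lower, at signals mostly under 16, with a log2 change of -0.50 ± 0.13 (limma, adjusted p = 0.110) that reached -0.60 without pair 3 lacking Noggin (adjusted p = 0.0417), where 1.08% of all probe sets were called. For slc2a2.L, of the low-affinity glucose transporter GLUT2, the log2 change was 0.75 ± 0.22 in Noggin (limma, adjusted p = 0.323, higher in 4 of 4 pairs) and 0.16 ± 0.22 without (higher in 2 of 4), and the difference of 0.59 ± 0.31 did not pass (adjusted p = 0.926).

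**Figure D2:**
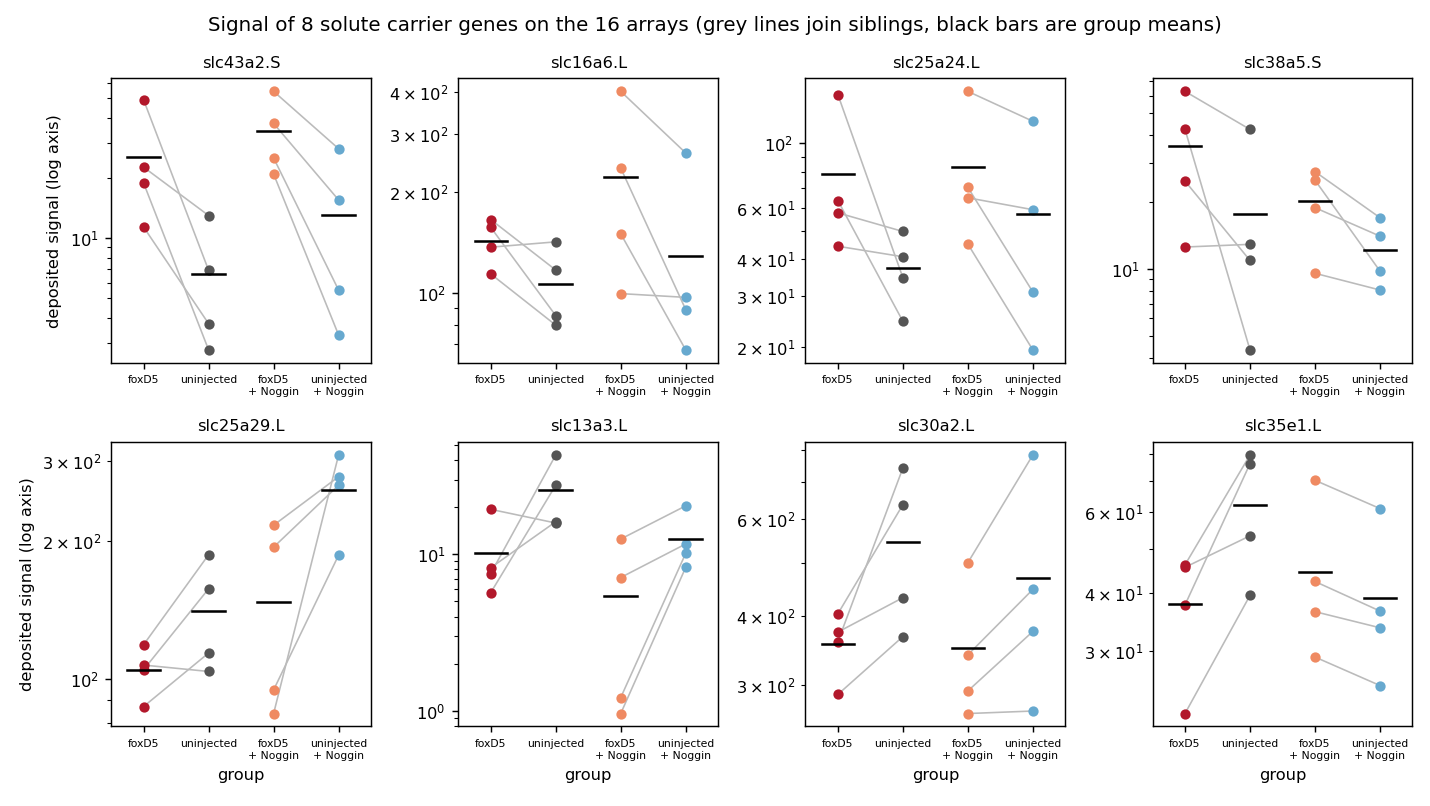
Deposited signal (vertical log axes, scaled separately) of 8 SLC genes in the 4 groups (horizontal axes); points are arrays, grey lines join sibling samples and black bars are means of 4. The line of slc43a2.S falls towards the uninjected sibling in 8 of 8 pairs, and slc25a29.L in Noggin lies at 83.9 to 217 in foxD5 caps, against 186 to 309 in uninjected caps.

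Carriers of family SLC25, mostly mitochondrial but including both homeologs of the peroxisomal carrier slc25a17, numbered 25 and held 0 calls. These carriers had 13 estimates above 0, 12 below and a median of 0.0071. They made up 3 of the 5 members that went the same way in 8 of 8 pairs (5 members are 4.27%, against 3.12% of all probe sets). Of these 3, slc25a24.L was higher in foxD5 caps and slc25a26.L and slc25a29.L were lower, and none passed. The gene slc25a29.L encodes a carrier of basic amino acids. Its signal was 107, 104.7, 86.9 and 119 in foxD5 caps, against 104, 157, 114 and 187 in uninjected caps. In Noggin the signal was 83.9, 94.5, 194 and 217 in foxD5 caps, against 309, 186, 265 and 277 in uninjected caps. The groups overlapped in both cultures, and the normalised foxD5 value was lower in 8 of 8 pairs, although the deposited signal of foxD5 sample 1 was slightly above its sibling's. It had a log2 change of -0.57 ± 0.15 (limma, adjusted p = 0.108).

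For slc25a24.L, of the calcium-regulated ATP-magnesium/phosphate carrier, the signal was 147, 63.6, 57.7 and 44.3 in foxD5 caps, against 34.6, 24.5, 49.8 and 40.8 in uninjected caps. In Noggin it was 70.6, 151, 45.1 and 65.0 in foxD5 caps, against 30.9, 119, 19.5 and 59.2 in uninjected caps. The foxD5 sample was higher in 8 of 8 pairs, with foxD5 sample 1 far above the rest of its group, and the log2 change was 0.62 ± 0.18 (limma, adjusted p = 0.151). Its homeolog slc25a24.S had a log2 change of -0.05 ± 0.16, and was higher in 4 of 8 pairs.

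The S-adenosylmethionine carrier gene slc25a26.L was lower in the foxD5 sample of 8 of 8 pairs. Its signal averaged 78.5 ± 33.9 in foxD5 caps and 121 ± 45.3 in uninjected caps, and 75.5 ± 33.4 in foxD5 + Noggin caps and 86.8 ± 37.7 in uninjected caps in Noggin (SD, n = 4 each). The log2 change was -0.53 ± 0.16 without Noggin (limma, adjusted p = 0.256) and -0.17 ± 0.16 in Noggin (adjusted p = 0.847).

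The inorganic ion and pH class of 9 members, which includes both homeologs of the scaffold gene slc9a3r1, held 0 calls, with a median of -0.056. The gene slc4a11.L, whose human protein conducts protons and water in the corneal endothelium, had a signal of 332, 239, 269 and 412 in foxD5 caps, against 243, 292, 171 and 291 in uninjected caps. The values in Noggin were 445, 709.96, 219 and 421 in foxD5 caps, against 257, 486, 189.6 and 237 in uninjected caps. In 7 of 8 pairs the foxD5 sample was higher, with overlapping groups and a log2 change of 0.43 ± 0.12 (limma, adjusted p = 0.149). For slc4a1.L, of the chloride-bicarbonate exchanger of red cells, it was -0.23 ± 0.15 (adjusted p = 0.577). Among 7 ionocyte marker genes beside them, foxi1.L fell in the mean of both cultures, and their summed signal was 442.8 to 595 in foxD5 caps, 552.2 to 858.4 in uninjected caps, 288.3 to 536 in foxD5 + Noggin caps and 606.3 to 774.5 in uninjected caps in Noggin.

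The metal ion class, assigned by family number, held 13 members, or 10 genes with homeologs counted as 1. It had 0 calls and a median of -0.095, and it includes both homeologs of the heme carrier gene slc48a1. Estimates below 0 were found for 11 of 13, against 61.5% of all members. The zinc transporter gene slc30a2.L (ZnT2, which loads zinc into vesicles) had a signal of 359, 288, 374 and 404 in foxD5 caps, against 742, 367, 432 and 637 in uninjected caps. In Noggin it was 293, 499.9, 266 and 340.2 in foxD5 caps, against 375, 784, 269 and 447 in uninjected caps. The foxD5 signal was below its sibling's in every pair, barely so in pair 3 in Noggin, where the normalised value was above it, and the log2 change was -0.44 ± 0.12 (limma, adjusted p = 0.134). Without the 3 pairs of widest keratin difference it was -0.24 (adjusted p = 0.423), and its relation to keratin signal is given further on. For slc30a6.S, of the zinc transporter ZnT6, the log2 change was -0.26 ± 0.14 (adjusted p = 0.501). It was -0.42 ± 0.16 on its other probe set (limma, adjusted p = 0.309) and -0.13 in the homeolog slc30a6.L.

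The 13 nucleoside, nucleotide sugar and acetyl-CoA transporters held 0 calls, with 9 estimates below 0 and a median of -0.15. The gene slc35a3.2.S, of the Golgi UDP-N-acetylglucosamine carrier, had a signal of 1128, 858, 1014 and 879 in foxD5 caps, against 1287, 958, 1076 and 916 in uninjected caps. In the Noggin culture the signal was 755, 1041, 850.2 and 617 in foxD5 caps, against 910.2, 1654, 996 and 1083 in uninjected caps. The 2 uninjected samples of highest keratin signal, at 1287 and 1654, lie above the other 14 arrays (617 to 1128). Without the 3 pairs of widest keratin difference the mean foxD5 estimate stayed below 0 and did not pass. The normalised values of siblings differed 1.14-fold and 1.08-fold in pairs 2 and 3 without Noggin. In pairs 1, 3 and 4 in Noggin they differed 1.21-fold, 1.18-fold and 1.68-fold. The part of keratin was not otherwise tested. The gene was lower in the foxD5 sample of 8 of 8 pairs, with a log2 change of -0.30 ± 0.10 (limma, adjusted p = 0.237). For slc33a1.L, of the acetyl-CoA transporter of the endoplasmic reticulum, it was -0.30 ± 0.12 (adjusted p = 0.338).

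Of 11 vitamin, lipid and organic ion transporters, 10 had estimates below 0 (61.5% of all members did), 0 passed and the median was -0.13. For slc22a5.L, of the carnitine transporter OCTN2, the log2 change was -0.46 ± 0.21 (limma, adjusted p = 0.436). It became 0.03 without the 3 pairs of widest keratin difference (adjusted p = 0.942). On its other probe set, with all pairs, it was -0.48 ± 0.21 (limma, adjusted p = 0.399). For slc19a3.L, of a thiamine transporter, it was -0.36 ± 0.15, lower in 7 of 8 pairs (adjusted p = 0.376). Among 5 vesicular transmitter transporters, the GABA and glycine loader slc32a1.S had 0.42 ± 0.15, higher in 7 of 8 pairs at signals mostly under 16 (adjusted p = 0.284), and the monoamine loader slc18a1.S had 0.25 ± 0.17 (adjusted p = 0.604). The 2 members of other families, slc49a3.S and slc66a1l.L, had 0.20 ± 0.12 (adjusted p = 0.539) and -0.26 ± 0.15 (adjusted p = 0.532).

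**Figure D3:**
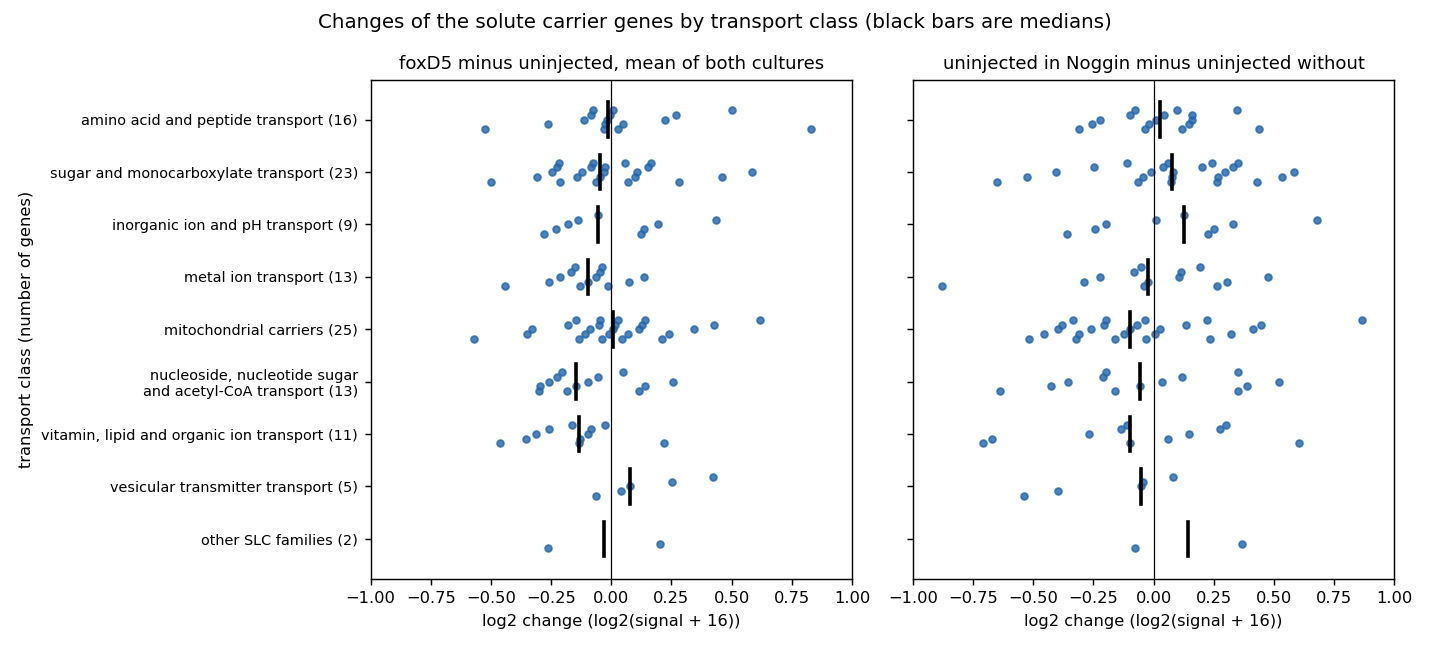
Log2 change of each SLC gene (horizontal axes) by transport class, assigned by family number, with the number of genes (vertical axis), for foxD5 minus uninjected caps as the mean of both cultures (left) and for uninjected caps in Noggin minus uninjected caps without (right); points are genes and black bars class medians. For foxD5, 11 of 13 metal ion and 10 of 11 vitamin, lipid and organic ion transporters lie left of 0, with medians of -0.095 and -0.13. Of all members 61.5% lie left of 0, against 51.3% of all probe sets, and the classes were not tested as sets.

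Whether the foxD5 effect differed between the cultures was tested as in Noggin minus without. No member passed, and 0% of all probe sets did. At an unadjusted p under 0.05 limma gave 3 members (2.56%, against 4.94% of all probe sets). The sign of the effect was the same in both cultures for 76 of 117 members (65%, against 56.4% of all probe sets), with 32 above 0 and 44 below in each. No array belongs to both cultures.

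The 3 members with an unadjusted p under 0.05 were slc35e1.L, slc41a3.L and slc66a1l.L. For slc35e1.L, of a nucleotide sugar transporter family and without a settled substrate, the signal was 46.1, 37.7, 45.5 and 21.9 in foxD5 caps, against 79.7, 76.3, 53.3 and 39.6 in uninjected caps. In Noggin it was 36.5, 29.1, 70.3 and 42.4 in foxD5 caps, against 33.7, 25.2, 61.1 and 36.6 in uninjected caps. The foxD5 sample was thus lower in 4 of 4 pairs without Noggin and higher, by little, in 4 of 4 in Noggin. The log2 change was -0.55 ± 0.14 without Noggin (limma, adjusted p = 0.212) and 0.13 ± 0.14 in Noggin (adjusted p = 0.872), a difference of 0.68 ± 0.20 (adjusted p = 0.926).

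For slc41a3.L, of a magnesium transporter family, the foxD5 effect in Noggin minus that without was 0.73 ± 0.27 (limma, adjusted p = 0.926), and on its other probe set, at a mean signal of 17.4, -0.19. For slc66a1l.L, a relative of the lysosomal exporter of basic amino acids, it was -0.68 ± 0.30 (adjusted p = 0.926). The other named members were the sulfate donor (PAPS) carrier slc35b2.S at 0.60 ± 0.29, the peroxisomal carrier slc25a17.S at -0.62 ± 0.32 and the lactate and pyruvate carrier slc16a1.S at -0.41 ± 0.21, each with an adjusted p of 0.926. On the other probe set of slc16a1.S the difference was 0.17.

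The effect of Noggin was asked in foxD5-injected and in uninjected caps. The labels do not link the sibling pairs of one culture to those of the other, so the Noggin effect was tested against the spread between pairs. The cultures may also differ in clutch, which the labels do not state, so clutch and Noggin cannot be told apart. Harvest stages ran to 13.0 in foxD5 caps without Noggin and to 12.5 in Noggin, and the part of stage was not tested. In foxD5-injected caps limma called 0 members and 0.129% of all probe sets, and in uninjected caps 0 members and 0.00646%. The first share was 0% when pair 4 lacking Noggin was left out. At an unadjusted p under 0.05 there were 9 members in foxD5-injected caps, 2 higher and 7 lower (7.69%, against 11.8% of all probe sets). In uninjected caps there were also 9, 5 higher and 4 lower (7.69%, against 8.23%). The median change of the members was 0.022 in foxD5-injected and -0.012 in uninjected caps, against -0.0056 and -0.0065 over all probe sets. On this scale the interval lay within 2-fold either way for 97 members in foxD5-injected caps and 94 in uninjected caps. Changes are thus less well bounded than for foxD5, with the same limit for dim genes.

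The riboflavin transporter gene slc52a1.L had a signal of 45.6, 52.9, 54.0 and 49.6 in uninjected caps in Noggin, against 89.3, 133, 92.0 and 88.7 in uninjected caps without. In foxD5 caps it was 40.3, 65.1, 44.9 and 66.1 in Noggin, against 91.2, 96.9, 64.8 and 76.9 without. The uninjected groups do not overlap, and the foxD5 groups overlap only at the 65.1 and 66.1 of samples 2 and 4 in Noggin and the 64.8 of sample 3 without. The log2 change was -0.71 ± 0.17 in uninjected caps (limma, adjusted p = 0.195) and -0.43 ± 0.17 in foxD5 caps (adjusted p = 0.31).

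The mitochondrial phosphate carrier gene slc25a3.L had a signal of 612, 770.5, 681 and 615 in foxD5 + Noggin caps, against 996, 803, 921 and 881 in foxD5 caps. In uninjected caps it was 773, 722, 752 and 734 in Noggin, against 947, 831, 885 and 959 without. Neither pair of groups overlaps. Its log2 change was -0.45 ± 0.15 in foxD5 caps (limma, adjusted p = 0.199, and 0.0284 at a pseudocount of 64, where 1.25% of all probe sets were called) and -0.34 ± 0.15 in uninjected caps (adjusted p = 0.583). A second probe set of the gene, with a mean signal of 96.4, gave 0.10 in foxD5 caps and -0.02 in uninjected caps, so the probe sets disagree.

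The monocarboxylate carrier gene slc16a1.S (MCT1) had a signal of 224, 356, 114 and 153 in foxD5 + Noggin caps, against 431, 365, 317 and 410.1 in foxD5 caps. Only foxD5 + Noggin sample 2 reached the range of foxD5 caps. The log2 change was -0.94 ± 0.27 (limma, adjusted p = 0.156), and -0.53 ± 0.27 in uninjected caps (adjusted p = 0.644). Its other probe set, with a mean signal of 131, gave 0.22 and 0.05, so the direction differs between probe sets.

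For slc25a29.L the signal of uninjected caps in Noggin, given above, was 0.87 ± 0.26 higher on the log2 scale than without (limma, adjusted p = 0.338), and the groups touch at 186 and 187. For slc41a3.L it was -0.88 ± 0.23 (adjusted p = 0.258), and 0.02 on its other probe set. For slc37a3.L, of the family of sugar phosphate carriers, the log2 change was 0.61 ± 0.25 in foxD5 caps (adjusted p = 0.355) and 0.58 ± 0.25 in uninjected caps (adjusted p = 0.575). The mitochondrial sodium-calcium exchanger slc8b1.S had 0.68 ± 0.28 in uninjected caps (adjusted p = 0.524) and the organic ion carrier family member slc22a15.2.S 0.60 ± 0.22 (adjusted p = 0.455).

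Other members named by class or rank had smaller or less certain Noggin values. In foxD5 caps the citrate carrier slc25a1.L had 0.61 ± 0.28 (limma, adjusted p = 0.398) and slc33a1.L 0.49 ± 0.24 (adjusted p = 0.445). In uninjected caps the nucleoside carrier slc29a2.L had 0.39 ± 0.18 (adjusted p = 0.595), the dim slc35c2.S -0.64 ± 0.30 (adjusted p = 0.604), the phosphate importer slc20a1.L 0.33 ± 0.17 (adjusted p = 0.644), slc30a6.S 0.48 ± 0.29 (adjusted p = 0.702), slc1a5.S 0.35 ± 0.25 (adjusted p = 0.769) and the vesicular nucleotide transporter slc17a9.L -0.40 ± 0.31 (adjusted p = 0.792).

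**Figure D4:**
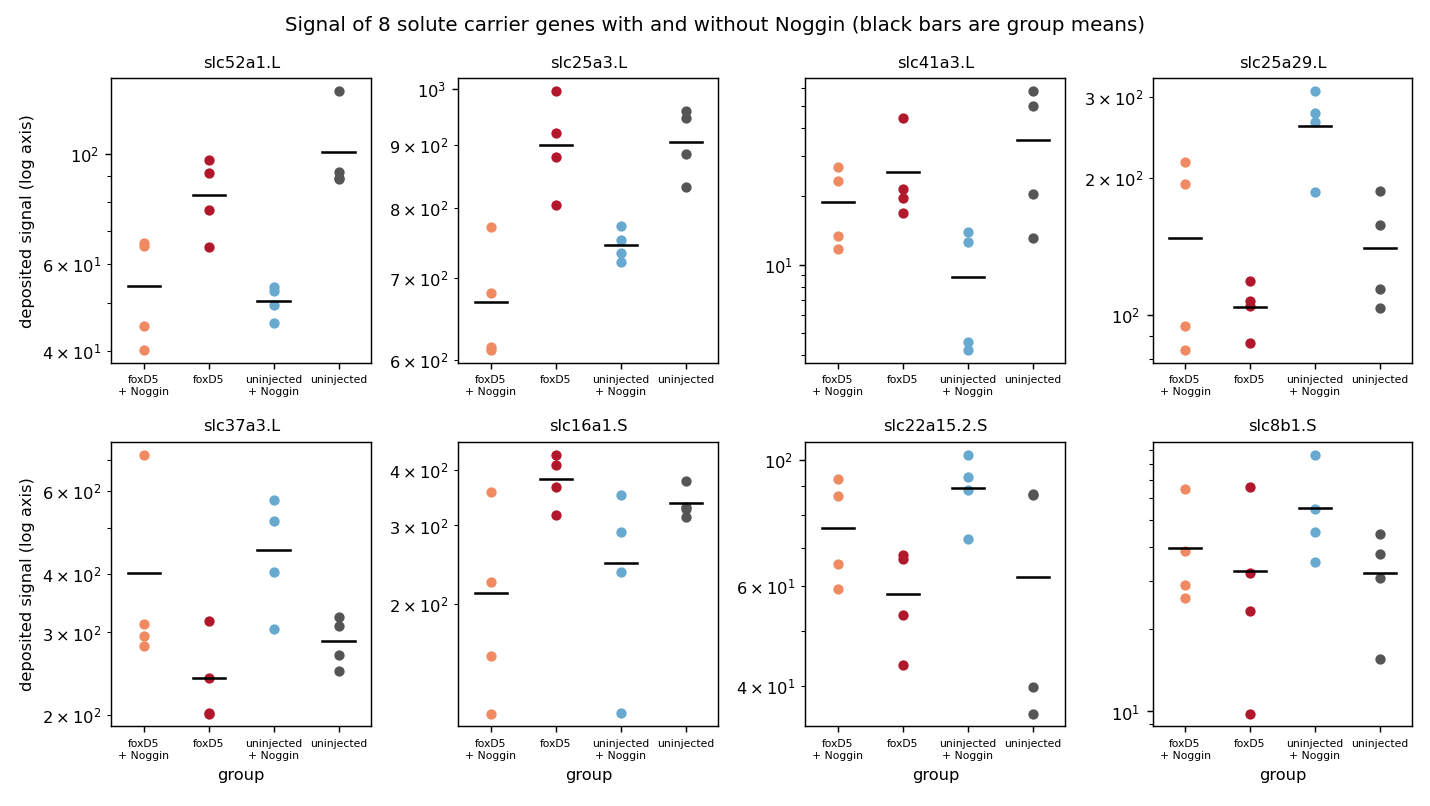
Deposited signal (vertical log axes, scaled separately) of 8 SLC genes by group (horizontal axes), with each Noggin group left of the same caps without Noggin; points are arrays and black bars means of 4. The 4 uninjected samples in Noggin lie at 45.6 to 54.0 for slc52a1.L, against 88.7 to 133 without, and slc25a3.L is separated in both kinds of caps.

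Several SLC genes varied over the arrays with the summed keratin signal. The summed keratin signal was highest in uninjected sample 2 in Noggin (22182) and uninjected sample 1 without Noggin (19689), the sample of 45 caps, and lay between 6458 and 13054 on the other 14 arrays. Of the 12 krt genes with a mean signal of at least 16, 7 were higher on both of these arrays than on any other, among them krt12.4.L (1721 and 1832, against 20.5 to 500.2). The other 5 were not, and in uninjected sample 2 in Noggin all 5 were below the median of the other 14 arrays. There krt18.1.L at 621.7, krt19.L at 129 and krt19.S at 57.1 were each the lowest but 1 of 16. The brightest krt gene, krt70.S, had 8872 and 6876 on the 2 arrays of highest sum, against 4112 to 6853 on the other 14. It made up 40% of the sum in uninjected sample 2 in Noggin, and the relation without it was not tested. Both arrays were above the other 14 for 9 of 117 members (7.69%), against 2.14% of all probe sets outside the keratin list. The genes below were chosen after their values were seen, and the part of epidermal content in them was not tested.

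The widest range belonged to slc38a2.L, of the sodium-coupled neutral amino acid carrier SNAT2. Its signal was 563.2 in uninjected sample 1 and 1236 in uninjected sample 2 in Noggin, against 16.8 to 286.6 with a median of 47.3 on the other 14 arrays. In the sibling foxD5 samples it was 46.9 and 286.6. Over all 16 arrays its normalised value spanned 32.9-fold, and its spread between sibling pairs ranked 18 among 15491 probe sets. The mean foxD5 effect, -0.53 ± 0.40, was accordingly uncertain (limma, adjusted p = 0.655), with the foxD5 sample higher in 4 of 8 pairs.

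Its normalised value correlated with the log2 summed keratin signal at Pearson's r = 0.939 and Spearman's rho = 0.768 over 16 arrays, and at r = 0.789 without the 2 highest arrays. The points are not independent, since sibling samples are related and each array's normalisation enters both axes, so no p is given. The same values were 0.934, 0.882 and 0.881 for slc30a2.L. They were 0.859, 0.782 and 0.728 for slc22a4.L, of the ergothioneine transporter OCTN1, and 0.874, 0.724 and 0.559 for the related slc22a5.L. An r over 0.7 was found for 7 members (5.98%), against 2.46% of all probe sets outside the keratin list. The remaining 3 were slc25a25.L and slc25a22l.S, of mitochondrial carriers of ATP-magnesium and of glutamate, and slc17a9.L. Both arrays were below the other 14 for 3 members, slc1a5.L, slc1a5.S and slc37a2.L (2.56%, against 1.23% of all probe sets outside the keratin list). Among them slc1a5.L had r = -0.772, with a signal of 10.4 and 8.59 on those 2 arrays, against 18.8 to 71.7 on the other 14. For it r was -0.337 without them, so the relation rests on those arrays. For slc25a46.S, of a mitochondrial outer membrane member of family SLC25, r was -0.727, rho -0.712 and r without those arrays -0.658, with a signal of 42.4 and 34.8 on them, within the range of 29.6 to 131 on the other 14.

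**Figure D5:**
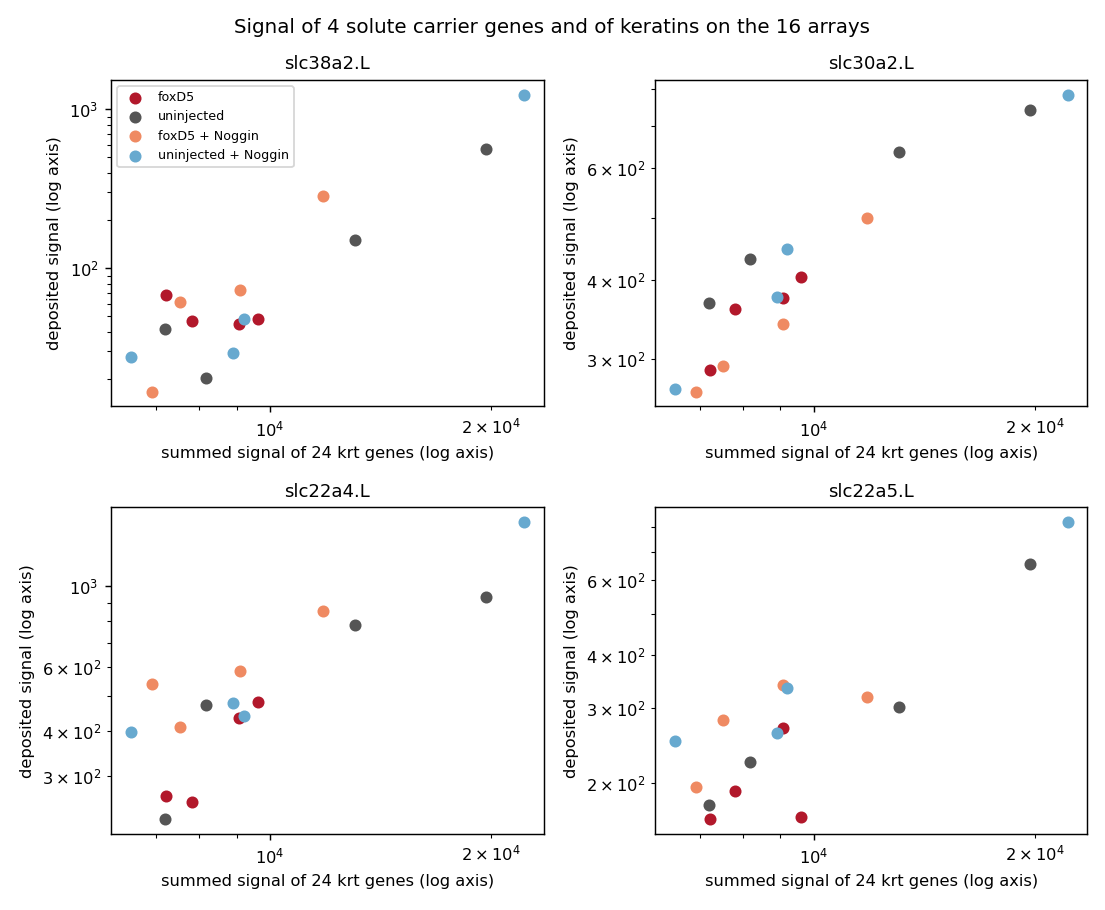
Deposited signal of 4 SLC genes (vertical log axes) against the summed signal of the 24 krt genes (horizontal log axes) on the 16 arrays, coloured by group. The arrays at 22182 and 19689 keratin signal are uninjected samples, and they hold the highest values of all 4 genes. Among the other 14 arrays slc30a2.L also follows the summed keratin signal (r = 0.881).

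Both homeologs were present for 15 genes among the members. The mean foxD5 effect had the same sign in both for 9 of 15 and the Noggin effect in uninjected caps for 13 of 15. Over the 16 arrays the normalised values of the 2 homeologs correlated at -0.491 (slc39a9) to 0.80 (slc30a6), with a median of 0.427. This is a description only, since the arrays include siblings. The foxD5 estimates had opposite signs for slc25a17 (0.43 in .L and -0.05 in .S), slc25a24, slc25a28, slc3a2, slc7a8 and slc9a3r1, and the difference between homeologs was not tested. Homeologs are near-identical in places, and cross-hybridisation between them was not tested.

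Spread between sibling pairs exceeded that within pairs for 95 of 117 members (81.2%, against 77.3% of all probe sets), with a median ratio of 1.51 (1.47 over all probe sets). The other transporter genes, none of them SLC members, were 8 ABC transporters, 31 ion pump subunits and 4 aquaporins. They held 0 calls in all 6 comparisons by limma, where 0% to 1.37% of all probe sets were called. With so few genes, 0 calls is near those shares. In the mean foxD5 effect 1, 4 and 1 of them had an unadjusted p under 0.05, against 11.6% of all probe sets.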

How the data were processed

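The deposited intensity values are the authors' linear signals, 1 per probe set, from 16 arrays; the software is not given in the sources used here. The 120 Affymetrix controls were left out and 15491 probe sets tested with no filter on low signal. Symbols came from the platform annotation (9304 probe sets with 1 symbol, 195 with several, 5992 with none), and 115 of 117 members matched a current RefSeq gene by Entrez identifier without a new symbol. Members and lists were chosen with earlier results of these data known.

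Values were quantile normalised as log2(value + 16), since array medians ranged from 5.79 to 6.35. Tests were two-sided, with limma 3.58.1 in R 4.3.3, moderated, and Benjamini-Hochberg adjusted over all probe sets at a threshold of 0.05. For the foxD5 effects, all 16 arrays were fitted with a term for each sibling pair, leaving 6 residual degrees of freedom. The labels call each control siblings of the injected sample of its number, and the 1 injected sample without a number in each culture was taken as number 1. Deviations of siblings from group means correlated at -0.115 in pair 1 without Noggin and at 0.203 to 0.67 in the other 7. For the Noggin effects, group means were fitted and siblings taken as correlated (duplicateCorrelation, 0.364), leaving 12 residual degrees of freedom.

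Named were the members past the threshold or, where fewer than 3 passed in a direction, the 3 of smallest p. The 2 of smallest p per transport class in the mean foxD5 effect and in the Noggin effect in uninjected caps were also named. These were 36 in all, and values of homeologs or other probe sets are given for some of them. Alternatives were the blocks, the deposited or median-centred values, pseudocounts of 1 and 64, brighter probe sets only, the 8 arrays of a comparison, other probe sets, each pair left out and the 3 pairs of widest keratin difference left out (pairs 1 and 4 without Noggin, pair 2 in Noggin). The fits were also run on simulated data with known changes. Noise and pair effects were drawn there independently for each probe set, so shifts shared by many genes of an array were not simulated. No result above rests on that run.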

Additional observations from a re-analysis of the deposited data

Results flagged for a closer look

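Within groups of 4 arrays, 6 of 144 groups of named members held a sample far from the other 3, by a gap, as a share of the group's range, above Dixon's 95% critical value. Chance alone gives about 1 in 20. The ratios are on the normalised log2 values, while the signals in parentheses are as deposited. The ratio of gap to range was 0.841 for slc17a9.L in uninjected sample 2 in Noggin (132, against 30.1 to 43.1), the array with the highest keratin signal. It was 0.924 for slc18a1.S in uninjected sample 4 (1.82, against 26.9 to 44.8), 0.841 for slc20a1.L in foxD5 sample 1 (109, against 66.1 to 82.8) and 0.848 for slc37a3.L in foxD5 + Noggin sample 3 (716, against 280.4 to 313). It was 0.88 for slc4a1.L in uninjected sample 1 in Noggin (18.1, against 32.02 to 37.9) and 0.864 for slc52a1.L in uninjected sample 2 (133, against 88.7 to 92.0).

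The foxD5 effect on slc35e1.L was opposite in the cultures, lower in 4 of 4 pairs without Noggin and higher in 4 of 4 in Noggin. The difference of 0.68 on the log2 scale had an adjusted p of 0.926 by limma over all probe sets.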

How the results depend on the processing

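Of 96 recomputed counts of called members over the 6 comparisons, 84 were 0 and the highest was 2. For the mean foxD5 effect the count of 1 became 0 without the sibling block, at a pseudocount of 1, over brighter probe sets (64 members, slc43a2.S not among them) and without the 3 pairs of widest keratin difference. Leaving out 1 pair gave 0 to 2: 0 without pair 1 in Noggin, and 2 without pair 1 lacking Noggin (with slc16a6.L) or pair 3 lacking Noggin (with slc13a3.L). For Noggin in foxD5 caps it became 1, slc25a3.L, at a pseudocount of 64, where 193 of all probe sets were called (1.25%), against 20 (0.129%). Over all probe sets the mean foxD5 effect called 213, against 67 without the sibling block and 57 at a pseudocount of 1. With 1 pair left out it called 89 (0.575%, without pair 4 lacking Noggin) to 394 (2.54%, without pair 1 lacking Noggin), with 168 (1.08%) without pair 3 lacking Noggin and 105 (0.678%) without pair 1 in Noggin. The foxD5 effect without Noggin called 37, against 0 at a pseudocount of 1, over its 8 arrays alone and without the 3 keratin pairs, 1 without the block, and 7 to 38 with 1 pair left out (7 without pair 4 lacking Noggin). That in Noggin called 49, against 1 at a pseudocount of 1, 3 without the block, 4 without the keratin pairs, and 5 to 59 with 1 pair left out (5 without pair 2 in Noggin). Noggin in foxD5 caps called 20, against 1 at a pseudocount of 1, 7 on deposited values, 96 over brighter probe sets, 63 with a replicate block across cultures, and 0 to 19 with 1 pair left out (0 without pair 4 lacking Noggin, and 3 without pair 1 or 3, 4 without pair 4 and 6 without pair 2 in Noggin, and 5 without pair 3 lacking Noggin). Noggin in uninjected caps called 1, and 0 to 4 over its alternatives. The call of slc43a2.S held in 11 of 15 alternatives, with log2 changes of 0.33 to 1.87 and adjusted p of 0.00462 to 0.127.

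Of 936 recomputed values of named members, 919 kept their direction and side of the threshold, and 10 changed sign. Only the mean foxD5 effect of slc43a2.S had passed, so for every other value keeping its side meant again not passing. The count is thus no measure of how firm those values are. On the other probe set slc16a1.S gave 0.17 for the difference between cultures, 0.22 for Noggin in foxD5 and 0.050 in uninjected caps, slc25a3.L 0.10 for Noggin in foxD5 caps, and slc41a3.L -0.19 for the difference and 0.019 for Noggin in uninjected caps. Without the 3 keratin pairs slc22a5.L gave 0.031 for foxD5. For Noggin in uninjected caps slc66a1l.L gave 0.0115 with median centring and -0.46 to 0.12 with 1 pair left out. The causes were not tested. Dim signals limit members such as slc13a3.L, slc32a1.S and slc35c2.S.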
